A study of Mus musculus with 8 samples.

Results

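The genes described here are the Wnt ligands, their receptors and co-receptors, the secreted antagonists, the R-spondin axis and the β-catenin partners and targets of the embryonic mouse kidney. They were chosen by name alone: all symbols of the Wnt, Fzd, Sfrp, Dkk and Rspo families, with Frzb, Wif1, Axin2, Lef1, Tcf7, Lgr4, Lgr5, Lrp5, Lrp6, Znrf3, Rnf43 and Ctnnb1. The table of 23337 genes held 53 such genes, and 43 of them had a mean normalised read count of at least 10 and were tested. RNA came from whole kidneys dissected at E13.5 on a mixed C57BL/6 background, with 4 libraries per group. Mutant kidneys were Foxd1Cre;Smo(flox/-). They carried Cre in the Foxd1 lineage, the stromal progenitors of the kidney, and their Smo copies were one floxed and one null. Smo encodes the transducer of the hedgehog signal. Control kidneys were Smo(flox/+), with a floxed and an intact copy and no Cre in their labelled genotype, although their source label calls them wild type. Parents were Foxd1Cre(Smo+/-) and Smo(flox/flox) mice, so both groups shared a floxed copy. Mutants also lacked the other Smo copy in every cell, so a difference belongs to the whole genotype. The labels number the samples and do not say whether they came from separate embryos or litters. P-values therefore measure the spread between these samples, which may be partly technical.

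Wnt proteins are secreted lipid-modified ligands that bind frizzled receptors. With the co-receptors Lrp5 and Lrp6 they stabilise β-catenin, which enters the nucleus and acts with Lef1 and Tcf family factors on target genes such as Axin2. Sfrp proteins, Frzb and Wif1 bind the ligands, and Dkk proteins such as Dkk1 block the co-receptors. R-spondins bind Lgr receptors and remove the ubiquitin ligases Znrf3 and Rnf43, which otherwise clear frizzled receptors from the membrane. In the embryonic kidney, Wnt9b from the ureteric bud and Wnt4 in the forming nephron drive nephron formation. Wnt11 is made at the ureteric tips, and Wnt7b in the ureteric trunk.

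Libraries held 10288191 to 13494079 reads in genes. The targeted gene Smo lay between 2152 and 2294 in the controls and between 509 and 553 in the mutants, so every library matched its label. Gli1, a transcription factor induced by hedgehog signalling, fell by 0.68 on the log2 scale, from 413 ± 36.2 to 259 ± 29.4 (SD, n = 4, adjusted p = 0.0102 in limma). Foxd1 fell by 1.29 on the same scale, from 1477 ± 473 to 593 ± 137 (adjusted p = 0.0251). The labels do not name the Foxd1Cre allele, and a common one interrupts Foxd1 itself. Across the kidney marker lists, 12 of 12 stromal, 9 of 9 nephron progenitor, 7 of 7 ureteric tip and 7 of 9 ureteric trunk genes passed the filter on low values. Skeletal muscle transcripts stood apart in the libraries numbered 2, where 7 muscle genes summed to 2514 in control 2 and 1451 in mutant 2, against 59.2 to 415 in the other libraries. Liver genes summed to 737 in control 1 and to 15.04 to 146 elsewhere. Control 4 differed most from the other controls. Its chi-square per degree of freedom over all tested genes was 7.41 to 10.98, against 3.28 to 4.82 among the other 3.

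None of the 43 tested Wnt pathway genes passed the threshold, an adjusted p under 0.05 in limma over all 13692 tested genes. Over all tested genes, 78 passed it (0.57%), 0.446% lower and 0.124% higher in the mutants. At an unadjusted p under 0.05 there were 10 members of 43 (23.3%), 7 lower and 3 higher in the mutants, beside 8.7% of all tested genes (5.17% lower and 3.53% higher). The 7 were Wnt2, Sfrp1, Sfrp4, Wif1, Lef1, Fzd10 and Lgr4, and the 3 were Wnt11, Rnf43 and Rspo1. The groups did not overlap for 3 members, Wnt2, Sfrp4 and Rnf43, which is 6.98% of the members beside 5.31% of all tested genes. The median log2 fold change, mutant over control, was -0.0044 over the members and 0.0037 over all tested genes, and 31 of 43 members differed by less than 0.2 in either direction. Fold changes are on the scale of log2 of the normalised count plus 1, which understates the change of low genes. By edgeR's quasi-likelihood test on recovered reads 0 members passed of 79 genes in all (0.577%). DESeq2 called 3 members, Wnt2, Sfrp1 and Sfrp4, among 214 genes (1.56%).

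**Figure D1:**
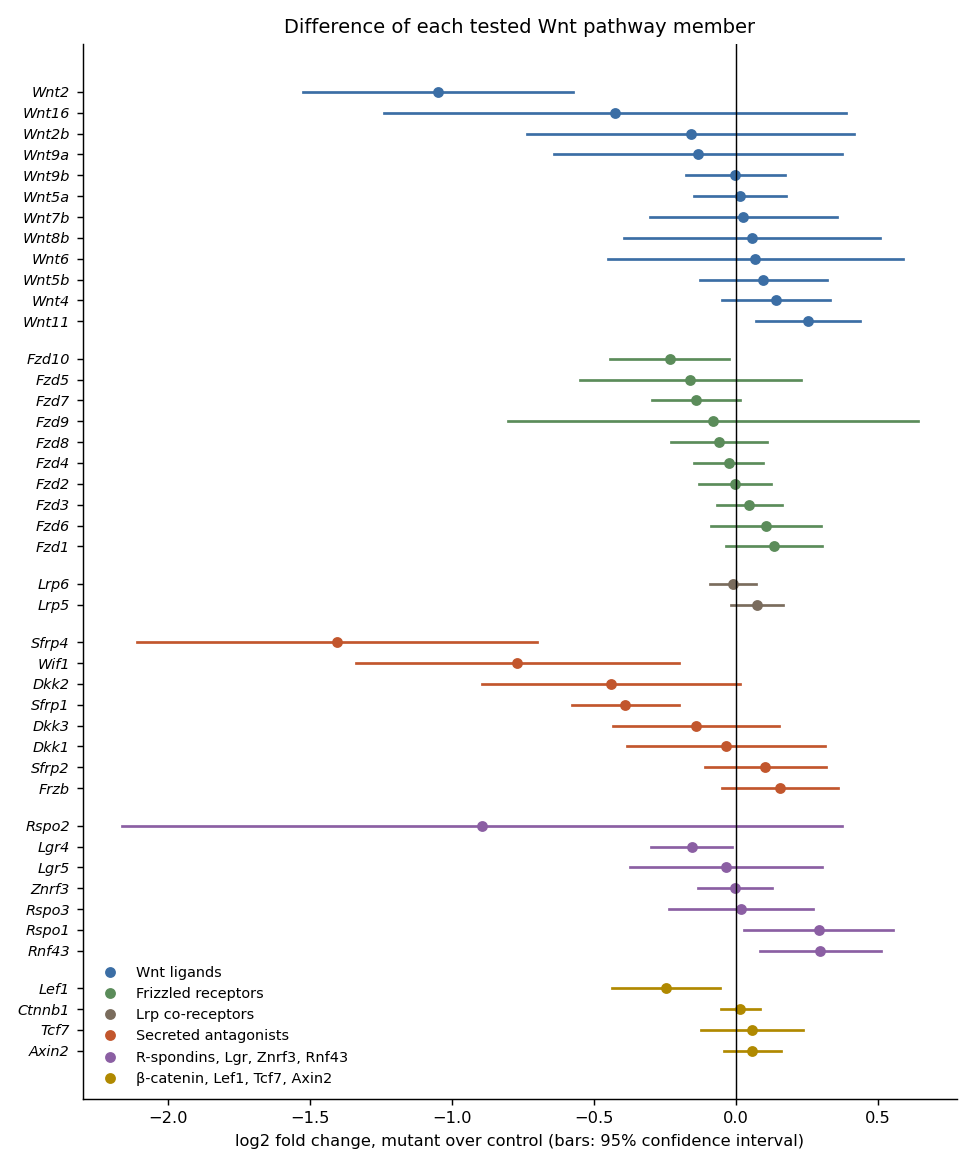
Log2 fold change of the 43 tested genes, mutant over control (horizontal axis), grouped and coloured by role. Points are limma estimates and bars are 95% confidence intervals; Sfrp4 at -1.40 and Wnt2 at -1.05 lie farthest from 0, and the intervals of the 10 genes with an unadjusted p under 0.05 leave out 0.

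Among the ligands, 12 of 19 genes were tested. Compared per kilobase of exon, Wnt4 was the most abundant at 219 normalised reads per kb over the 8 libraries. Wnt11 followed at 104, Wnt9b at 72.0, Wnt5b at 64.6 and Wnt5a at 58.6. Wnt2 stood at 19.8 and Wnt16 at 3.15, the lowest of those tested. The other 7 ligands were near the limit of detection. No read of Wnt1 or Wnt3a was seen in any library, where 3 reads, the limit that a count of 0 allows, correspond to 0.292 RPM, the usual scaling of reads to the library total, in the library with fewest reads. That limit covers counting error only. Wnt8a had 1 read in all, Wnt10b 13, Wnt3 and Wnt7a 14 each and Wnt10a 36. Wnt10a was at 3.402 to 8.27 normalised counts in the controls and 2.13 to 3.22 in the mutants, without overlap but too low to test. Of the tested ligands not described further, Wnt5a, Wnt5b, Wnt6, Wnt8b, Wnt9a and Wnt2b had overlapping groups, log2 fold changes from -0.16 to 0.10 and adjusted p of 0.8745 or more.

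**Figure D2:**
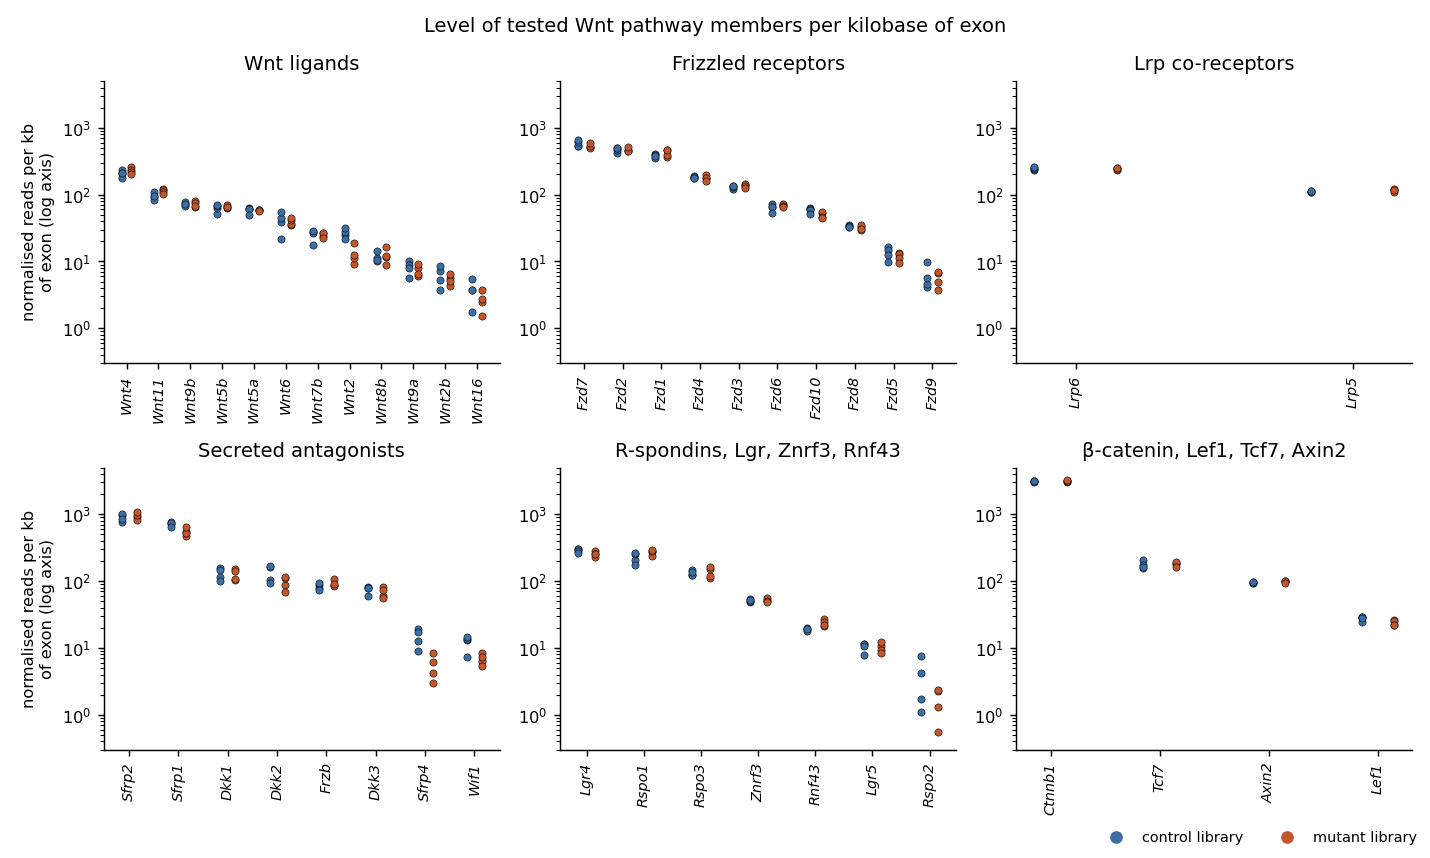
Level of each tested member in normalised reads per kilobase of exon on a log axis, in 6 panels by role. Each point is a library, control in blue and mutant in orange; Ctnnb1 at 3145 per kb over all libraries is the highest, and the clouds of Wnt2 and Sfrp4 are set apart between the groups.

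Wnt2, a ligand known for lung and placental development, had the smallest p-value of all members. It was at 57.0, 63.1, 48.4 and 71.5 normalised counts in controls 1 to 4, and at 21.0, 25.6, 28.0 and 41.9 in mutants 1 to 4. Every mutant lay below every control, with mutant 4 the nearest to them. The means were 59.99 ± 9.72 and 29.1 ± 8.99 (SD, n = 4), so the mutants were at 48.5% of the control level. On the log2 scale the difference was -1.05 (SE 0.22, 95% interval -1.52 to -0.57, adjusted p = 0.0656). Permuting the libraries exactly, two-sided, p was 0.0286, which is the lowest possible with 70 arrangements. Any gene whose groups do not overlap reaches this value, so it adds nothing to the lack of overlap. In the authors' deposited table Wnt2 is listed at -1.04 on the log2 scale with an adjusted p of 0.00585, where 0.614% of the genes with a p-value pass 0.05. These levels rest on 364 reads over all libraries.

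Wnt2 lies on chromosome 6 from 17985474 to 18032772 of GRCm38, 11.7 Mb from Smo. The window of 20 Mb around Smo held 148 tested genes, counting Wnt2 and Wnt16 but not Smo. Of these, 5 passed the threshold (3.38%), beside 0.57% of all tested genes. An unadjusted p under 0.05 in limma was reached by 24 of the 148 (16.2%), Wnt2 among them, beside 8.7% of all tested genes. Each mutant inherits the chromosome that carries the null Smo allele and no control does. An effect of the genotype on Wnt2 and a difference between parental chromosomes near Smo cannot be told apart in this design. Wnt16, 7.44 Mb from Smo, had 16.1 ± 6.7 and 11.4 ± 3.9 normalised counts in overlapping groups (log2 fold change -0.43, adjusted p = 0.8286).

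Wnt11, the ligand of the ureteric tip, was at 453, 385, 343 and 390 in controls 1 to 4. It was at 500, 488, 453 and 426 in mutants 1 to 4. The groups overlapped only through control 1. Its log2 fold change was 0.25 (SE 0.08, adjusted p = 0.316). Summed levels of the 7 ureteric tip markers were 5667 to 6610 in the controls and 6926 to 7844 in the mutants, with Gfra1 called higher. All 7 had positive fold changes, with a median of 0.27, and none was at 0 in all libraries. The part of this shift in the level of Wnt11 was not tested. In whole kidneys, fewer or more cells of a type and a change in RNA per cell cannot be told apart.

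The other tip, trunk and nephron ligands had means close to each other. Wnt9b was at 300 to 346 in the controls and 296 to 367 in the mutants, with means of 325 in both. Its 95% interval for the log2 fold change was -0.18 to 0.17. Wnt4 was at 876 ± 94.0 and 965 ± 100.5 (log2 fold change 0.14, 95% interval -0.05 to 0.33, adjusted p = 0.744). Wnt7b was at 122 ± 24.5 and 122 ± 10.5, and control 4 was the lowest of all libraries at 85.6. The interval of Wnt7b was wide, -0.30 to 0.35. With this spread between libraries, a difference in Wnt7b anywhere within that interval remains possible. The 9 ureteric trunk markers summed to 5670 to 7891 in the controls and 6642 to 8992 in the mutants. All 7 tested ones had positive fold changes, with a median of 0.21, and 0 were called. The part of this shift in the levels of Wnt7b and Wnt9b was not tested.

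Of the 35 members with a promoter sequence in RefSeq (GRCm38.p6), 3 held one of the short motifs searched in the 250 bases before an annotated start. The motifs were CTTTGAT, the core bound by Tcf and Lef factors, and CCACCCA, the core bound by Gli factors, on either strand and before any annotated start of a gene. The first was found before Wnt11 and Wnt5b, 5.71% of the members with a sequence beside 3.72% of 27025 genes. The other was found before Fzd7 alone, 2.86% of the members beside 9.29% of genes. Windows of Wnt2, Rnf43, Lef1 and Axin2 held neither. The sequences of Wnt11 and Fzd7 are shown because they join a member of the pathway to a motif of the β-catenin and of the hedgehog pathway. Capitals mark the motif, which lies 51 to 45 bases before the start on the other strand in Wnt11 (chr7:98834862-98835111, plus strand). In Fzd7 (chr1:59481897-59482146, plus strand) it lies 159 to 153 bases before the start on the gene's strand. A match describes letters in the window and does not show binding.
Wnt11: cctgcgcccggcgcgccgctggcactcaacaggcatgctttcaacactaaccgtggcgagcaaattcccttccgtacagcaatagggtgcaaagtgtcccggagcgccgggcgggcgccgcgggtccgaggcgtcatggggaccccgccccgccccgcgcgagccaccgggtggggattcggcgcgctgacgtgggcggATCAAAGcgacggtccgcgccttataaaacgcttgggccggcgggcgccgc
Fzd7: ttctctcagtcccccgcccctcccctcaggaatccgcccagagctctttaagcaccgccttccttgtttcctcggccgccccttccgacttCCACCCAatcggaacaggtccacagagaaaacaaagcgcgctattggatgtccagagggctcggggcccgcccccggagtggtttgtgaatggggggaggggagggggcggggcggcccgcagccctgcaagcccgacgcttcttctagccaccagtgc

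All 10 frizzled receptor genes were tested and none was called. Fzd7, Fzd2 and Fzd1 had the highest levels per kilobase of exon, 560, 473 and 405 normalised reads per kb. Fzd5 and Fzd9 had the lowest, 12.6 and 5.83. For Fzd7, controls 1 to 4 were at 2429, 2432, 2819 and 2968 and mutants 1 to 4 at 2331, 2245, 2421 and 2640. The groups overlapped (log2 fold change -0.14, SE 0.07, adjusted p = 0.635). Fzd2 was at 1734 ± 136 and 1728 ± 94.5, with a 95% interval of -0.13 to 0.12 for the log2 fold change. Fzd1 was at 1615 ± 86.8 and 1781 ± 216 (log2 fold change 0.13, adjusted p = 0.711). Fzd3, Fzd4, Fzd5, Fzd6, Fzd8 and Fzd9 had overlapping groups, with log2 fold changes from -0.16 for Fzd5 to 0.11 for Fzd6.

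Fzd10 was the receptor with the smallest p-value. It was at 205, 195, 192 and 166 in controls 1 to 4 and at 173, 176, 149 and 147 in mutants 1 to 4. Control 4 lay below mutants 1 and 2 and the other controls lay above all mutants. The fitted log2 fold change was -0.23 (SE 0.10, adjusted p = 0.491). The co-receptor genes varied little. Lrp6 was at 3206 to 3547 in the controls and 3231 to 3399 in the mutants (95% interval -0.09 to 0.07). Lrp5 was at 1074 ± 25.3 and 1130 ± 51.2 (log2 fold change 0.07, adjusted p = 0.711).

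Among the secreted antagonists, Sfrp2 and Sfrp1 were the most abundant, at 920 and 633 normalised reads per kb over all libraries, and Dkk1 came next at 128. Sfrp4 and Wif1 were at 9.95 and 9.51, and Sfrp5 and Dkk4 did not reach the filter, with 30 reads and 1 read in all. Sfrp5 was at 5.10, 7.24, 6.78 and 1.88 in controls 1 to 4 and at 1.07 to 3.36 in the mutants, overlapping through control 4. Over the 8 tested antagonists 6 log2 fold changes were negative and 2 positive, with a median of -0.27. An unadjusted p under 0.05 was reached by 3 of the 8, all lower in the mutants, beside 5.17% of all tested genes in that direction.

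Sfrp1, a secreted frizzled-related protein that binds Wnt ligands, was at 3073, 3382, 3219 and 2845 in controls 1 to 4 and at 2062, 2406, 2285 and 2850 in mutants 1 to 4. The groups met only where mutant 4 reached the level of control 4, the lowest control. The mean of the mutants was 76.7% of the control mean, with a log2 fold change of -0.39 (SE 0.09, 95% interval -0.58 to -0.20, adjusted p = 0.0876). The exact two-sided permutation p was 0.0571. Sfrp1 passed the threshold without mutant 4 (log2 fold change -0.48, adjusted p = 0.0113) and without control 4 (-0.43, adjusted p = 0.0355, in a fit that called 1.35% of genes). It did not in the other 6 fits that left out 1 library, where the adjusted p reached 0.281. The authors' deposited table lists it at an adjusted p of 0.0462.

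Sfrp4, another family member, was at 37.4, 79.6, 71.7 and 52.7 in controls 1 to 4. It was at 12.4, 25.6, 17.9 and 35.4 in mutants 1 to 4. The groups did not overlap, and mutant 4 came just below control 1. The mutants stood at 37.8% of the control mean, with a log2 fold change of -1.40 (SE 0.32, 95% interval -2.11 to -0.70, adjusted p = 0.106). The exact permutation p was 0.0286, as for any gene whose groups do not overlap, and 5.31% of all tested genes have no overlap. In the authors' deposited table its adjusted p is 0.0532. Only 337 reads over all libraries support these values. Without mutant 4, Sfrp4 and Wnt2 also passed the threshold (log2 fold changes -1.64 and -1.23, adjusted p = 0.0419 and 0.0207), in a fit that called 0.76% of genes. Neither passed with any other library left out.

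Wif1, which binds Wnt ligands through its own domain, was at 31.5, 33.1, 35.8 and 17.9 in controls 1 to 4 and at 15.3, 20.2, 17.9 and 12.9 in mutants 1 to 4. Control 4 fell within the range of the mutants. Their difference on the log2 scale was -0.77 (SE 0.26, adjusted p = 0.332). Sfrp2 did not share this direction. Its levels were 2068, 2139, 1622 and 1817 in controls 1 to 4 and 1977, 1755, 2128 and 2348 in mutants 1 to 4 (log2 fold change 0.10, adjusted p = 0.848). Frzb was at 270 ± 28.4 and 300 ± 31.0, also with a positive log2 fold change of 0.16 (adjusted p = 0.734). For Dkk1 the levels were 241 to 383 and 255 to 368, and for Dkk3 they were 199 to 278 and 190 to 276.

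**Figure D3:**
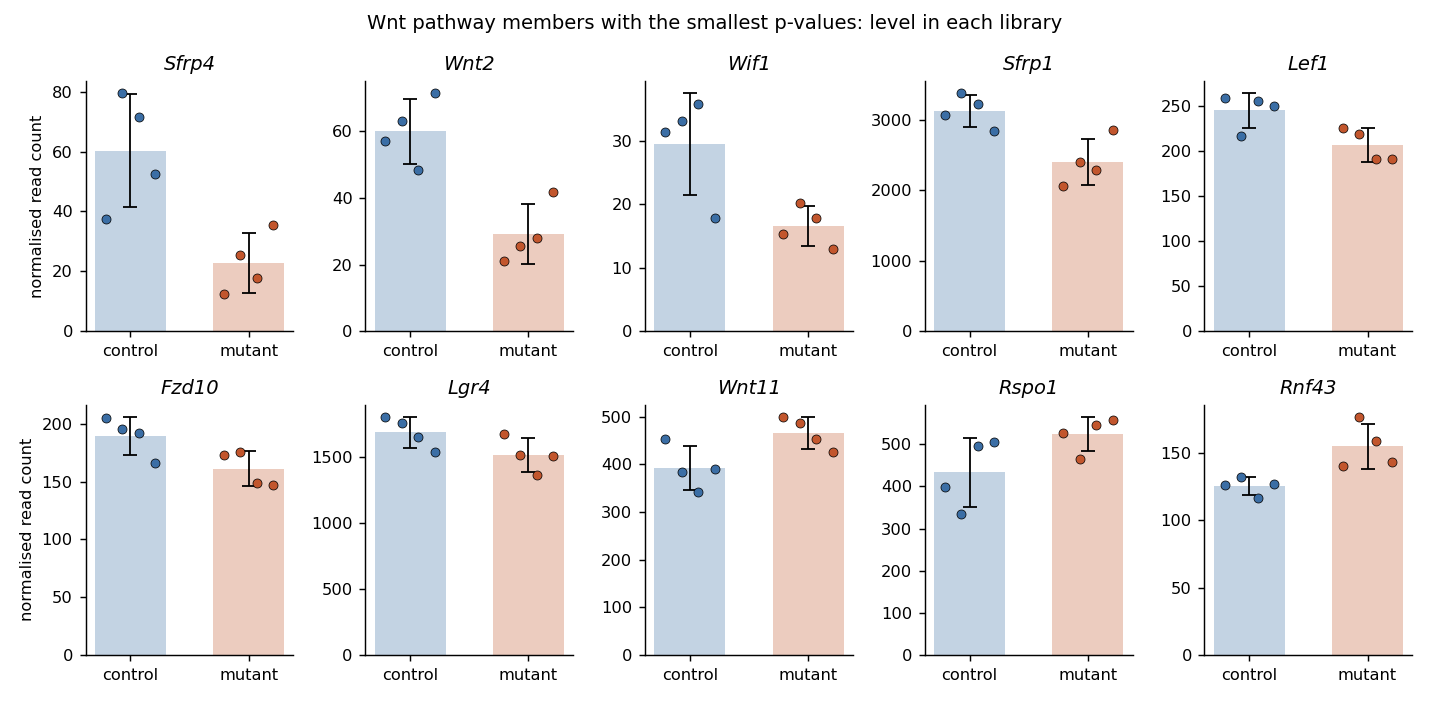
Normalised read count in each library for the 10 members with an unadjusted p under 0.05. Points are libraries in the order 1 to 4, bars are group means and error bars are SD (n = 4); Wnt2, Sfrp4 and Rnf43 are the genes whose control and mutant points do not overlap.

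The 12 stromal marker genes summed to 37979 to 46505 normalised counts in the controls and 32590 to 38442 in the mutants. Of these 12 genes 10 had negative fold changes, with a median of -0.21, and Foxd1 was called lower. Control 4 had the lowest sum among the controls and mutant 4 the highest among the mutants, and none of the 12 was at 0 in all libraries. Sfrp1 had the same extremes, control 4 and mutant 4. The others differed in part: Wnt2 was highest in control 4, Sfrp4 was lowest among the controls in control 1, and Wif1 was lowest in mutant 4. The 8 macrophage genes, all with negative fold changes and none called, summed to 501 to 946 in the controls and 342 to 633 in the mutants. The part of the stromal and macrophage shifts in the levels of Sfrp1, Sfrp4, Wif1 and Wnt2 was not tested.

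In the R-spondin axis, 7 of 8 genes were tested and none was called. Lgr4, Rspo1 and Rspo3 had the highest levels, 272, 247 and 134 normalised reads per kb. Rspo4 was below the filter with 25 reads. Rnf43, a ubiquitin ligase and a target of β-catenin, was at 126, 132, 116 and 127 in controls 1 to 4 and at 140, 177, 159 and 143 in mutants 1 to 4. All mutants were above all controls, the closest being mutant 1 and control 2. Its log2 fold change was 0.30 (SE 0.10, 95% interval 0.08 to 0.51, adjusted p = 0.312). Its relative Znrf3 had means of 407 and 406 with overlapping groups (95% interval -0.14 to 0.13). Lgr5, a receptor related to Lgr4, was at 107 ± 17.6 and 104 ± 17.5.

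Rspo1 was at 399, 335, 496 and 506 in controls 1 to 4 and at 528, 466, 547 and 558 in mutants 1 to 4. Controls 1 and 2 were the lowest of the 8 libraries, and the other controls overlapped with mutant 2. Its difference on the log2 scale was 0.29 (SE 0.12, adjusted p = 0.491). Without controls 1 and 2 it was 0.06. Rspo3 was at 410 ± 38.0 and 418 ± 75.0. Lgr4, an R-spondin receptor, was at 1802, 1752, 1645 and 1536 in controls 1 to 4 and at 1673, 1515, 1361 and 1501 in mutants 1 to 4. Mutant 1 lay above controls 3 and 4. The log2 fold change of Lgr4 was -0.16 (SE 0.07, adjusted p = 0.507).

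Rspo2 and Dkk2 are given here because of their spread between libraries, which was noticed after their values were seen. Rspo2 was at 21.3, 39.3, 8.7 and 5.6 in controls 1 to 4 and at 2.9, 11.7, 6.7 and 11.8 in mutants 1 to 4. Its coefficient of variation among the controls, 81.6%, was the largest of the tested members, while that of Ctnnb1 was 1.69% and that of Axin2 2.07%. Rspo2 had 109 reads over all libraries, against 131366 for Ctnnb1 and 4284 for Axin2, so counting error takes a larger part in its spread. Dkk2 was at 595, 619, 383 and 341 in controls 1 to 4 and at 320, 408, 255 and 425 in mutants 1 to 4. Both genes were highest in controls 1 and 2. Those controls also had the highest sums of skeletal muscle genes among the controls, 415 and 2514, against 174 and 59.2 in controls 3 and 4. Among the mutants, mutants 2 and 4 were alike in Rspo2 and in Dkk2 and above mutants 1 and 3, while their muscle sums were 1451 and 132. All 7 muscle genes passed the filter and none was at 0 in all libraries. The 8 macrophage genes summed to 737, 946, 587 and 501 in controls 1 to 4 and to 437, 630, 342 and 633 in mutants 1 to 4. This sum was also highest in controls 1 and 2, and higher in mutants 2 and 4 than in mutants 1 and 3. Dkk2 ranked the libraries in the same order as this sum. The part of muscle, liver or macrophage transcripts in the levels of Rspo2 and Dkk2 was not tested. Without controls 1 and 2 the log2 fold change of Rspo2 went from -0.89 to 0.06 and that of Dkk2 from -0.44 to -0.07. For Wnt2 (-1.04), Sfrp4 (-1.49) and Sfrp1 (-0.34) the values without these controls stayed within 0.1 of those with all libraries.

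**Figure D4:**
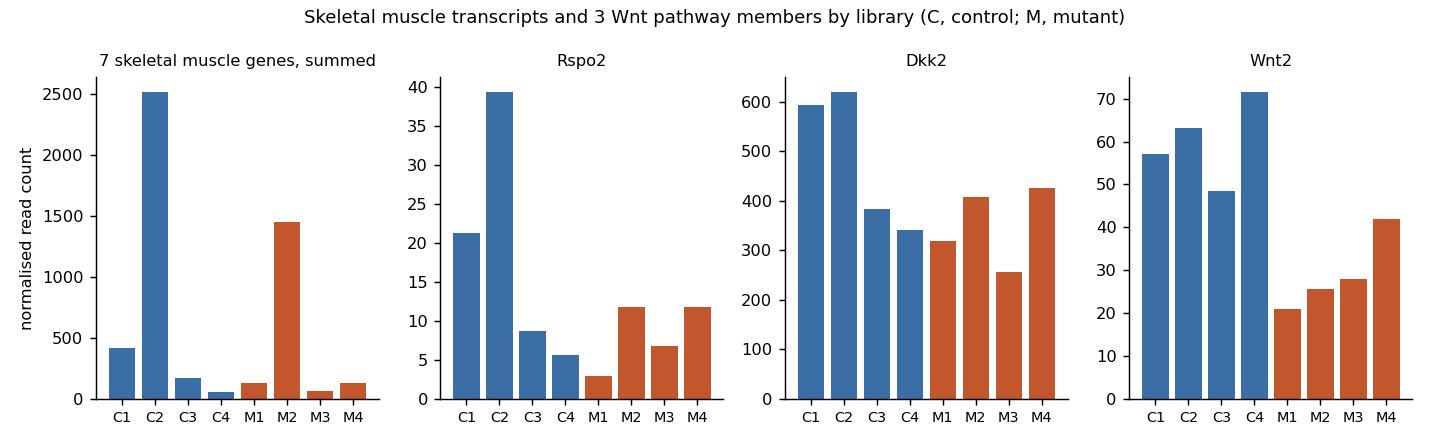
Summed normalised count of 7 skeletal muscle genes and normalised counts of Rspo2, Dkk2 and Wnt2 in each library (C1 to C4, controls; M1 to M4, mutants). The muscle sum, Rspo2 and Dkk2 are highest in C2, whereas Wnt2 separates all controls from all mutants.

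The β-catenin gene itself and the general target Axin2 were among the steadiest members. Ctnnb1 was at 16448, 15961, 16058 and 16506 in controls 1 to 4 and at 15708, 16444, 16474 and 17035 in mutants 1 to 4. The 95% interval of its log2 fold change was -0.05 to 0.08. Exons of Ulk4 on the opposite strand cover 14.6% of the exon length of Ctnnb1. The deposited counts are labelled Unstr, which may mean that counting ignored strand, but the setting is not spelled out. Genes on the opposite strand also cover 17.8% of the exon length of Fzd5, 16.1% of Sfrp2 and 13.1% of Rspo3. Smaller parts are covered in Wnt11 (8.8%), Wnt7b (6.6%), Wnt5a (4.6%), Axin2 (3.8%) and Fzd6 (3.2%). Axin2, a feedback inhibitor that β-catenin switches on, was at 515, 511, 534 and 528 in controls 1 to 4. It was at 547, 561, 544 and 521 in mutants 1 to 4. Mutant 4 lay within the range of the controls. The log2 fold change was 0.06 (SE 0.05, 95% interval -0.04 to 0.16, adjusted p = 0.814).

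Lef1 and Tcf7 encode nuclear partners of β-catenin. Lef1 was at 259, 217, 256 and 250 in controls 1 to 4 and at 226, 219, 192 and 191 in mutants 1 to 4. Control 2 lay among the mutants and the other controls above them. The log2 fold change was -0.25 (SE 0.09, 95% interval -0.44 to -0.05, adjusted p = 0.377). The antisense gene Gm43352 covers 13.7% of the exon length of Lef1, so reads of both cannot be told apart without strand. Tcf7 was at 460 ± 53.7 and 478 ± 33.1 (log2 fold change 0.06, adjusted p = 0.911).

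Beyond these genes, 81 others of the pathway were in the table and 75 were tested, in 7 lists by role. None passed the threshold in limma. An unadjusted p under 0.05 was reached by 12 of them (16.0%), 5 lower and 7 higher, beside 8.7% of all tested genes (5.17% lower and 3.53% higher). Their median log2 fold change was 0.0045, beside 0.0037 over all tested genes. The groups did not overlap for 7 of the 75 (9.33%), beside 5.31% of all tested genes. These 7 were Gpc3, Ppp2r1a, Tcf7l1, Tle6, Prickle1, Prickle2 and Cited1. Planar polarity genes, which act in Wnt signalling without β-catenin, held 4 of the 12, Prickle1 and Prickle2 lower and Celsr1 and Scrib higher, out of 13 tested (30.8%). Prickle2 was at 544, 532, 532 and 532 in controls 1 to 4 and at 439, 432, 441 and 482 in mutants 1 to 4, with no overlap (log2 fold change -0.25, SE 0.05, adjusted p = 0.0521). Prickle1 was at 522, 491, 533 and 458 in controls 1 to 4 and at 373, 323, 392 and 423 in mutants 1 to 4, also with no overlap (log2 fold change -0.41, SE 0.08, adjusted p = 0.0615). The authors' deposited table lists Prickle1 at an adjusted p of 0.00197 and Prickle2 at 0.193. Prickle2 was called by edgeR's quasi-likelihood test (adjusted p = 0.049952) and DESeq2 (adjusted p = 0.0260), and Prickle1 by DESeq2 (adjusted p = 0.0024).

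Among nuclear partners of β-catenin, 2 of 13 tested genes (15.4%) had an unadjusted p under 0.05, beside 8.7% of all tested genes. Tcf7l1, a mostly repressive Tcf factor, was at 711 to 762 in the controls and 787 to 857 in the mutants without overlap (log2 fold change 0.18, SE 0.04, adjusted p = 0.123). Tle6, of the Groucho family of co-repressors, was at 42.6 ± 3.69 and 57.3 ± 6.05 (log2 fold change 0.42, adjusted p = 0.336). Among 11 extracellular regulators, the membrane glycoprotein gene Tpbg was at 856 ± 93.1 and 1034 ± 58.4 (log2 fold change 0.28, adjusted p = 0.156). Apcdd1, an inhibitor of Wnt signalling at the membrane, was at 495 ± 82.9 and 399 ± 51.2 (log2 fold change -0.30, adjusted p = 0.491). Of 7 other receptors and co-receptors, Gpc3, a glypican, was at 9681 ± 292 and 8729 ± 500 without overlap (log2 fold change -0.15, adjusted p = 0.198). Ptk7, a receptor of planar polarity, had a log2 fold change of 0.06.

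The destruction complex breaks down β-catenin. None of the 16 tested genes of dishevelled and this complex had an unadjusted p under 0.05, beside 8.7% of all tested genes. The smallest p-values were those of the kinase gene Gsk3a (log2 fold change 0.08, adjusted p = 0.659) and the phosphatase subunit gene Ppp2r1a (0.05, adjusted p = 0.718). Among 9 common β-catenin targets, the regulator of growth Myc was at 897 ± 37.9 and 1003 ± 45.0 (log2 fold change 0.16, adjusted p = 0.219). The cyclin gene Ccnd1 was at 7913 ± 329 and 7301 ± 359 (log2 fold change -0.12, adjusted p = 0.386). Among 6 targets in nephron progenitors and early nephrons, 5 log2 fold changes were positive, with a median of 0.10. Cited1, a marker of the nephron progenitors, was at 368, 375, 358 and 275 in controls 1 to 4 and at 544, 522, 404 and 421 in mutants 1 to 4. These groups did not overlap (log2 fold change 0.46, SE 0.12, adjusted p = 0.156). Pla2g7, a phospholipase gene, was at 467 ± 17.8 and 511 ± 52.3 (log2 fold change 0.13, adjusted p = 0.697). The 9 nephron progenitor markers, a list without Cited1, summed to 9887 to 11621 in the controls and 12030 to 12767 in the mutants, with Itga8 called higher. None of the 9 was at 0 in all libraries, and their part in the level of Cited1 was not tested.

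**Figure D5:**
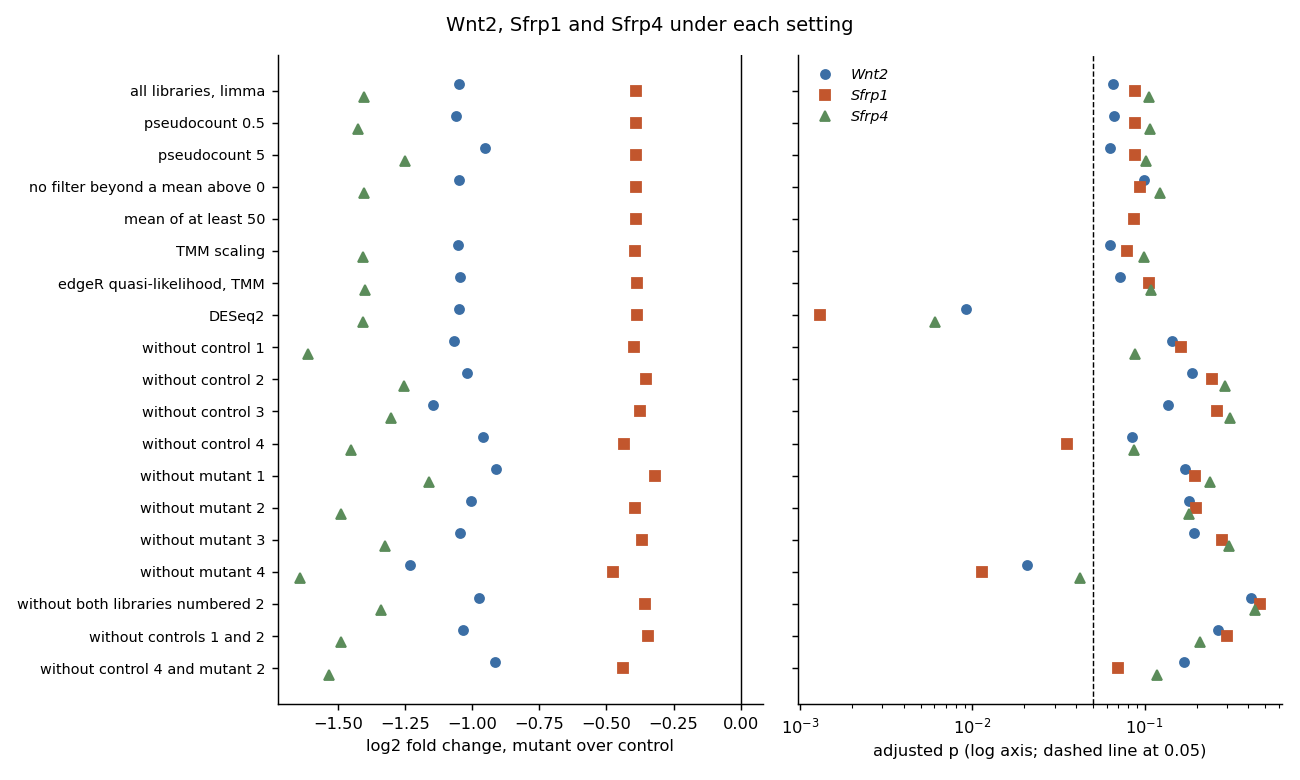
Log2 fold change (left) and adjusted p on a log axis (right) of Wnt2, Sfrp1 and Sfrp4 under 19 fits (rows), with the dashed line at 0.05 and no point for Wnt2 and Sfrp4 where a mean of at least 50 was required. In the fits shown, fold changes keep their sign, while adjusted p crosses the line with DESeq2 and without mutant 4 for all 3 genes, and without control 4 for Sfrp1. The fit with the replicate block is not drawn, and all 3 genes passed 0.05 in it.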

How the data were processed

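Libraries were made with a TruSeq kit and poly(A) selection from 500 ng of RNA, per the labels' protocols. The submitters' processing notes name TopHat2 2.0.12, HTSeq, DESeq2 1.4.5 and mm10 (GRCm38), and the annotation and strand setting are not given in the sources used here. The deposited signal values equal reads over a size factor specific to the library: 100% of them were whole multiples of the library's smallest value within 0.01 read, which gave back the reads. Further columns, per the file headers, hold the authors' fold change (a ratio), log2 fold change and p-values.

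After adding 1, values were log2-transformed and the 13692 genes with a mean of 10 or more were fitted with limma 3.58.1 (intensity trend, R 4.3.3). Genotype was the single term, tests were two-sided, and p was adjusted by Benjamini-Hochberg over all tested genes. Because normalised values were deposited, count tests (edgeR 4.0.16, DESeq2 1.42.0) on the recovered reads served as alternatives. The fit was tested on simulated data. No library was a copy of another, since chi-square per degree of freedom was 2.89 to 10.98 within groups. Levels per kilobase use the union of GENCODE vM21 exons. Positions (53 of 53 members) and promoters (35) are from RefSeq GRCm38.p6.

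Named members were those with an unadjusted p under 0.05, the 3 most abundant per kilobase in each role, and Axin2, Lef1, Wnt4, Wnt9b, Wnt11, Wnt7b and Ctnnb1. Of the other pathway genes, the 2 with the smallest p in each list were named. Wnt16, Frzb and Znrf3 were added for comparison, and Rspo2 and Dkk2 after their values were seen. The members, lists and tests were chosen with earlier results of these data known. Alternatives changed the pseudocount, filter, scaling, test, block and libraries used. Figures were drawn with matplotlib 3.10.9.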

Additional observations from a re-analysis of the deposited data

Results flagged for a closer look

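Of 80 groups of 4 libraries examined for a library far from the other 3, covering the 26 members and 14 other pathway genes followed under each alternative, 1 stood out, where chance gives about 4, or 1 in 20. Prickle2 was 543.5 in control 1 against 531.9 to 532.4 in the other controls. That gap of a few normalised counts is small beside the mutants, which all lay at 482 or below.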

How the results depend on the processing

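Of 812 values of named genes under 19 alternatives, 747 kept their direction and their side of the threshold, 27 kept their direction and newly passed it, 7 (of Gli1 and Foxd1) no longer passed it, and 31 in 8 genes had the opposite sign. No member was called higher under any alternative. Members called lower numbered 3 with DESeq2 and 0 to 3 with 1 library left out (3 without mutant 4, 1 without control 4). Other pathway genes called numbered 1 with a mean of at least 50, with TMM scaling and with edgeR, 5 with DESeq2, 2 without control 4 and mutant 2, and 0 to 2 with 1 library left out. Genes called across the table numbered 214 with DESeq2, 2 without both libraries numbered 2, 29 without controls 1 and 2, 146 without control 4 and mutant 2, and 18 to 185 with 1 library left out. TMM scaling moved the median log2 fold change of all genes from 0.0037 to 0.0002.

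Deviations from the group means correlated between same-numbered libraries at 0.32, 0.29, 0.29 and 0.06. Numbers 1, 2 and 3 correlated best with their own number and number 4 with number 3. Not every pair was over 0.1 and the labels tie the numbers to no litter or batch, so the numbers were not taken as pairs. With the replicate block, 232 genes were called (1.69%), 3 members (Wnt2, Sfrp1 and Sfrp4, all lower) and 3 other pathway genes.

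Opposite signs occurred for Rspo2 and for 7 named genes with log2 fold changes between -0.04 and 0.03. Without controls 1 and 2 the values were 0.21 for Dkk1, 0.0541 for Wnt9b, -0.0897 for Rspo3 and 0.0557 for Rspo2. Without control 4 and mutant 2 they were 0.0075 for Lrp6, 0.0446 for Fzd2 and -0.12 for Wnt7b, and without both libraries numbered 2 Fzd2 was at 0.0093. With 1 library left out, ranges were -0.16 to 0.0650 for Dkk1, -0.0033 to 0.0357 for Ctnnb1, -0.0309 to 0.0178 for Lrp6, -0.0572 to 0.0293 for Fzd2, -0.13 to 0.0952 for Wnt7b, -0.0626 to 0.0410 for Wnt9b and -0.0743 to 0.10 for Rspo3. The cause was not tested. A filter at a mean of 50 left out Wnt2, Sfrp4, Wif1, Rspo2 and Tle6. With 337 and 364 reads over all libraries, Sfrp4 and Wnt2 are limited by counting as well as by the spread between libraries.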
